A study of Homo sapiens with 8 samples.

Results

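Alpha-fetoprotein (AFP), albumin (ALB) and 7 further genes that mark fetal liver or liver cancer were followed through RNA-seq libraries of Huh7 cells in which UPF1 had been depleted or overexpressed. The members were chosen by symbol and all 9 were listed among the 17076 genes of the expression tables. They are the secreted proteins AFP, ALB and IGF2, the cell-surface proteoglycan GPC3, the noncoding RNA H19, and the RNA-binding proteins IGF2BP1, IGF2BP2, IGF2BP3 and LIN28B. Huh7 is a long-established cell line derived from hepatocellular carcinoma (HCC). For depletion, Huh7 cells given scrambled siRNA (siControl) were compared with cells given UPF1 siRNA (siUPF1). For overexpression, cells given a control MYC vector (MYC) were compared with cells given a MYC-UPF1 overexpression vector (MYC-UPF1), where MYC is the tag on the protein. Each of the 4 groups has 2 libraries, with no further alleles or agents named, and the labels give no time after transfection. The results describe 1 cell line after transient transfection, and which of the study's siRNAs was given to the sequenced cells is not stated in the sources used here. Nothing in the labels says that the 2 libraries of a group came from separate cultures, so p-values measure only the spread between these libraries, which may be technical.

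Oncofetal genes are active in the fetal liver, shut down around or after birth, and often active again in HCC. AFP is the major serum protein of the fetus and a blood marker of HCC, whereas ALB is the major serum protein of the adult and is made by mature hepatocytes. IGF2 is a fetal growth factor transcribed from an imprinted locus that it shares with H19, and GPC3 is an HCC surface antigen. IGF2BP1, IGF2BP2 and IGF2BP3 bind IGF2 mRNA and many others and keep them from decay. LIN28B blocks the maturation of the let-7 microRNAs, and let-7 in turn represses LIN28B, the IGF2BP genes and other fetal genes. UPF1 is the RNA helicase at the centre of nonsense-mediated mRNA decay (NMD), the pathway that removes transcripts with early stop codons and some with long 3′ untranslated regions (3′UTRs).

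UPF1 itself was at 44.5 and 47.4 FPKM in siControl and at 20.7 and 21.9 FPKM in siUPF1, and its log2 fold change was -1.07 (SE 0.0928, limma adjusted p = 0.0308). In MYC it was at 45.1 and 57.4 FPKM and in MYC-UPF1 at 2834 and 2484 FPKM, which gave a log2 fold change of 5.68 (SE 0.110) at a limma adjusted p = 8.91e-09. FPKM scales the sequenced fragments of a gene to transcript length and to the mapped fragments of the library, so levels are per length and can be compared between genes. No gene was listed at 0, and summed FPKM ran from 403902 to 455592 between libraries. Read depth is unknown, because the deposited values carry no read numbers. A gene was called at an unadjusted p of 0.05, the threshold that the study states, and an adjusted p is given beside the genes named as called.

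Huh7 cells expressed all members but H19 at 13.6 FPKM or more in every library, and no fetal or adult liver sample is among the 8. AFP was the most abundant member, from 11093 to 12505 FPKM over the 8 libraries, and ranked between 1 and 5 among all genes of a library. ALB followed at 6550 to 8371 FPKM, ranked between 4 and 9. Together they made up 4.09% to 4.72% of all FPKM. GPC3 lay at 399 to 540 FPKM and IGF2 at 267 to 374 FPKM. The RNA-binding proteins were lower, with IGF2BP1 at 47.3 to 66.9 FPKM, LIN28B at 27.1 to 48.2 FPKM, IGF2BP2 at 24.6 to 27.7 FPKM and IGF2BP3 at 13.6 to 18.4 FPKM. H19 stood apart from its neighbour IGF2, at 0.107 to 0.234 FPKM, and ranked no higher than 14539. AFP, ALB, GPC3 and IGF2 kept this order in every library. IGF2BP1 was above LIN28B in 7 of 8 libraries, and LIN28B above IGF2BP2 in 7 of 8, so these neighbours did not differ beyond their spread in all groups. The largest level of a member was 1.13 times its smallest for IGF2BP2 and AFP, 1.77 times for LIN28B and 2.20 times for H19.

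**Figure D1:**
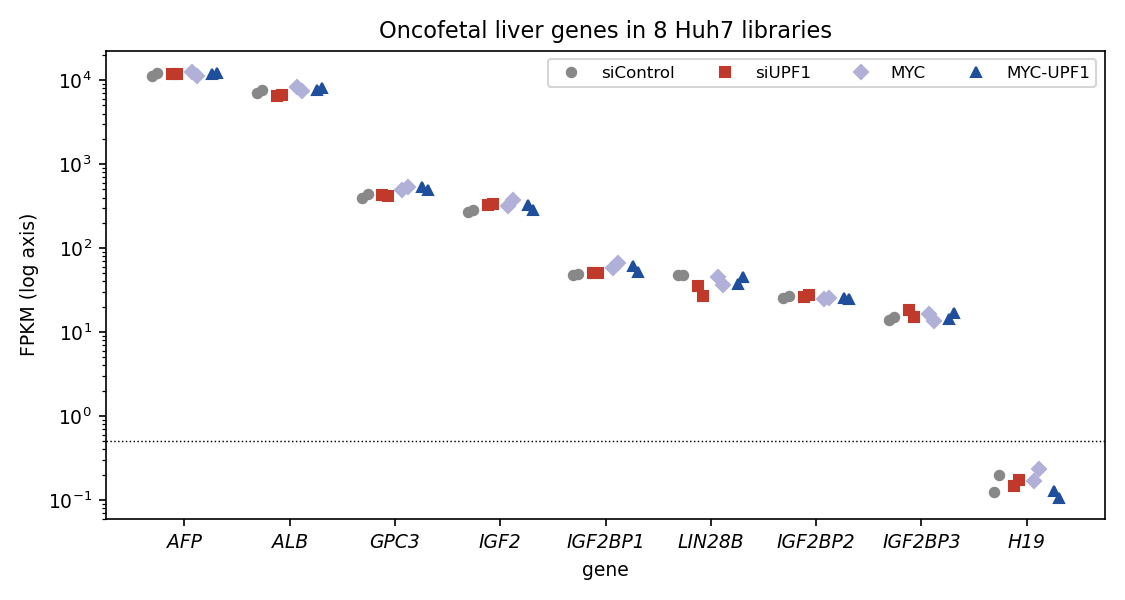
FPKM (log axis) of the 9 oncofetal liver genes, with 1 point per library and the 4 groups side by side, and a dotted line at the minimum mean of 0.5 FPKM for testing. AFP and ALB lie at or above 6550 FPKM in all 8 libraries, H19 lies below the line in all 8, and the LIN28B points of siUPF1 lie below those of siControl.

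On GRCh37, the assembly also called hg19, ALB lies on chromosome 4 from 74270004 to 74287199 and AFP directly downstream of it from 74301938 to 74321891, both on the plus strand. IGF2 lies on chromosome 11 from 2150347 to 2160619 and H19 from 2016406 to 2025782, both on the minus strand. GPC3 is on chromosome X (132669773 to 133119621, minus strand), IGF2BP1 on chromosome 17 (47074747 to 47133507, plus strand), IGF2BP2 on chromosome 3 (185360918 to 185542830, minus strand), IGF2BP3 on chromosome 7 (23349828 to 23510110, minus strand) and LIN28B on chromosome 6 (105404982 to 105531207, plus strand). H19 is annotated as a long noncoding RNA and the other members as protein-coding genes. The 3′UTRs fell into short and long ones. Those of AFP, ALB and GPC3 measure 554, 414 and 379 bases in the annotated canonical transcript, all below the median of 1290 bases over 13126 genes. Those of IGF2BP3 and IGF2BP2 measure 2153 and 2401 bases, that of IGF2 3870, that of LIN28B 4549 and that of IGF2BP1 6701 bases.

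The RNA-binding members share a sequence feature that the secreted and surface members lack, but AFP, ALB and GPC3 also have short 3′UTRs. The let-7 microRNAs pair with mRNAs through their seed, bases 2 to 8, shown in capitals in 2 mature family members (RefSeq, GRCh38.p14).
hsa-let-7a-5p: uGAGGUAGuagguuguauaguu
hsa-let-7d-5p: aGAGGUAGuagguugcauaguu
Each 3′UTR was searched on the transcript strand for CTACCTC, the complement of that seed, alone and with no other motif. LIN28B held 4 matches, IGF2BP1 held 4, and IGF2BP2 and IGF2BP3 held 1 each. AFP, ALB, GPC3 and IGF2 held none. Among all 3′UTRs 10.93% held at least 1, a share that was higher in longer 3′UTRs. It was 3.297% under 1000 bases, the class of AFP, ALB and GPC3. From 1000 to under 3000 bases, the class of IGF2BP2 and IGF2BP3, it was 11.09%. It was 20.2% from 3000 to under 5000 bases and 35.55% at 5000 bases or more. A 3′UTR without a match was thus the usual case at the lengths of AFP, ALB, GPC3 and IGF2. Whether the contrast between the members goes beyond length was not tested. The matches are shown with their flanks in the sense of the mRNA, the seed complement in capitals, because LIN28B had the largest fold change among the 8 members tested and the IGF2BP genes carry the same letters.
LIN28B match 1: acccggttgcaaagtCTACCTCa
LIN28B match 2: tactgatgatagtaaCTACCTCt
LIN28B match 3: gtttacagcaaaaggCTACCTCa
LIN28B match 4: aaatgatggtgttgaCTACCTCt
IGF2BP1 match 1: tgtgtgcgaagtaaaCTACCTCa
IGF2BP2 match 1: aacacacagaagaagCTACCTCa
IGF2BP3 match 1: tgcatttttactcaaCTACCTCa
On GRCh37 these lie in the 3′UTR at chr6:105526687-105526709, chr6:105529114-105529136, chr6:105529296-105529318 and chr6:105530735-105530757 (LIN28B, plus strand), chr17:47128423-47128445 (IGF2BP1, plus strand), chr3:185362008-185362030 (IGF2BP2, minus strand) and chr7:23351414-23351436 (IGF2BP3, minus strand). The first LIN28B match starts 44 bases after the stop codon and the last 4092 bases after it. Of the 4 LIN28B matches 2 are followed by an A, and of the 4 IGF2BP1 matches 3 are. A match is a description of the letters, not a measured binding site.

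**Figure D2:**
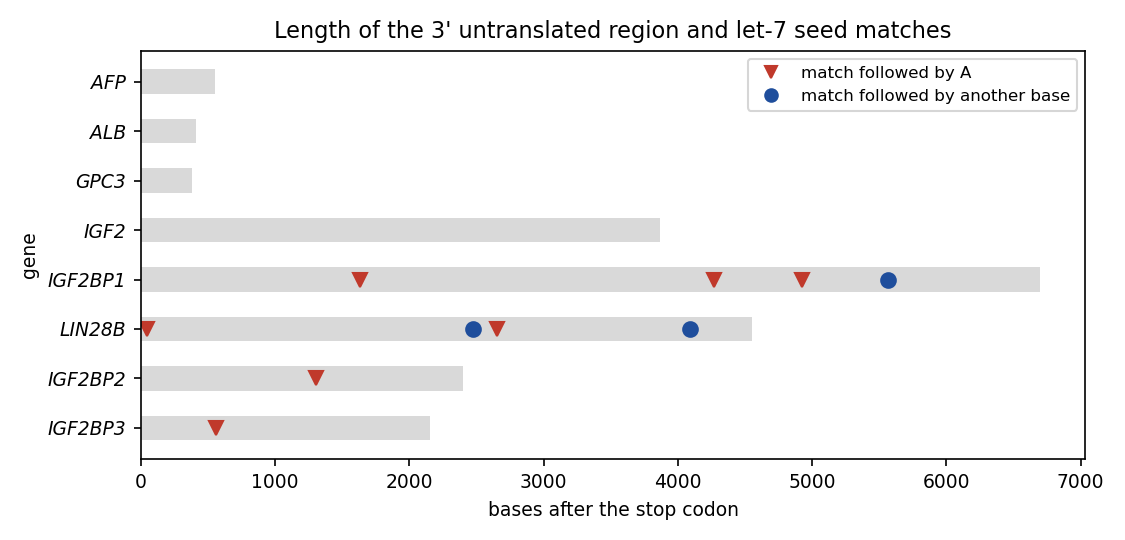
Length of the 3′UTR in bases after the stop codon (grey bars) for the 8 protein-coding members, with each match to the let-7 seed complement marked by whether an A follows it. LIN28B and IGF2BP1 carry 4 matches each, IGF2BP2 and IGF2BP3 carry 1 each, and AFP, ALB, GPC3 and IGF2 carry none.

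UPF1 depletion was compared first, to ask whether the oncofetal genes depend on the normal level of UPF1. LIN28B fell and IGF2 rose, while AFP, ALB, GPC3 and the IGF2BP genes did not pass the test. Of the 8 members tested, 2 were called (1 higher, 1 lower), beside 21.5% of the 13535 genes tested (16% higher, 5.51% lower), so the share called among the members is near the share among all genes. At an adjusted p of 0.05 none of the 8 was called in limma, beside 0.0369% of all genes. The median log2 fold change was 0.04 over the 8 members and 0.06 over all genes. The share of higher among all called genes, 74.3%, depended on the scaling, with 1422 higher and 1405 lower after quantile normalization and 1329 higher and 1558 lower after centring each library on its median.

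LIN28B was at 47.4 and 48.2 FPKM in siControl and at 35.1 and 27.1 FPKM in siUPF1. Both depleted libraries lay below both controls, and the gap to the controls was larger than the gap between the depleted libraries. The means were 47.8 ± 0.565 FPKM (SD, n = 2) and 31.1 ± 5.63 FPKM (SD, n = 2). The log2 fold change was -0.61 (SE 0.130, 95% confidence interval -0.92 to -0.31, limma adjusted p = 0.0848). This call was made in all 14 alternative settings, with log2 fold changes from -0.79 to -0.43. Both of these extremes came from fits that left a single siUPF1 library. Where every library was kept, the limma adjusted p ran from 0.0289 to 0.198. There it was under 0.05 only at a mean of 5 FPKM or more (0.0289) and after removal of the trend with G+C content and length (0.0485).

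IGF2 was at 267 and 284 FPKM in siControl and at 325 and 340 FPKM in siUPF1. The groups did not overlap. The log2 fold change was 0.27 (SE 0.0935, 95% confidence interval 0.05 to 0.49, limma adjusted p = 0.178). This call was lost without siControl replicate 1 (log2 fold change 0.22) and without siControl replicate 2 (0.32), each of which leaves a single control library.

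The base composition of the transcripts moved with these results. The log2 fold change of siUPF1 against siControl correlated with the G+C content of the transcript over 12833 genes (Spearman's rho 0.536, across genes, which are not independent replicates). By library, the deviation from the mean of these libraries correlated with G+C content at a rho of -0.462 and -0.472 in siControl. In siUPF1 the rho was -0.0569 and 0.632, so the depleted libraries differed widely. The siUPF1 library at 0.632 was also the lower in LIN28B, at 27.1 FPKM against 35.1 FPKM. LIN28B has a G+C content of 38.0%, the 8.81th percentile of the listed genes, and IGF2 has 60.5%, the 87.7th percentile. After the trend with G+C content and length was removed from each library, the log2 fold change of LIN28B was -0.53 (SE 0.0800, limma adjusted p = 0.0485). That of IGF2 was 0.03 (SE 0.0693, limma adjusted p = 0.847), and its groups then overlapped. The call for LIN28B was therefore kept and the call for IGF2 lost under this setting. IGF2BP3, with a G+C content of 40.5%, had a log2 fold change of 0.25 there and passed the unadjusted threshold (limma adjusted p = 0.123).

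**Figure D3:**
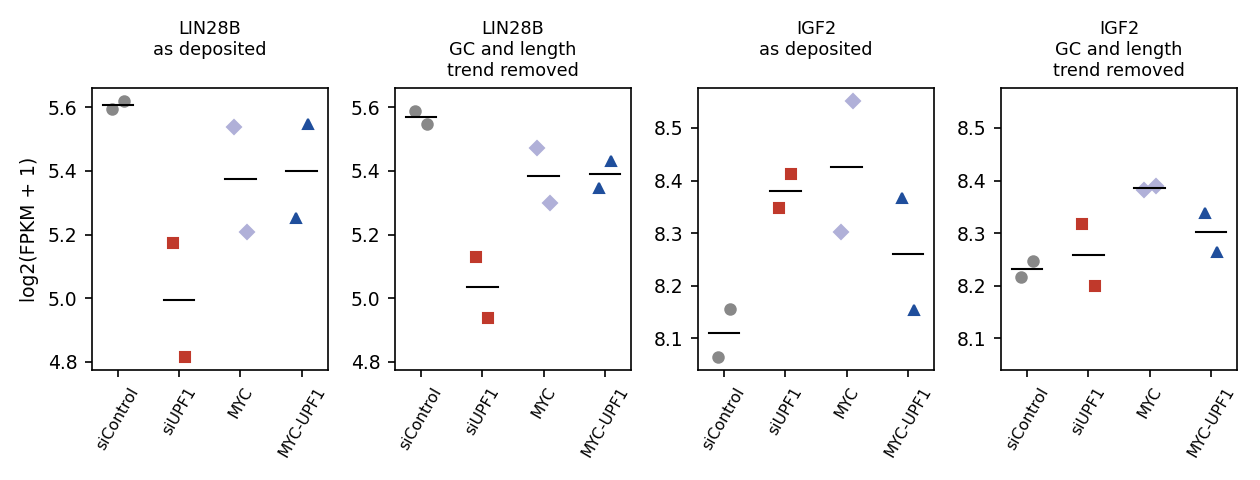
LIN28B and IGF2 as log2(FPKM + 1), with 1 point per library and a line at each group mean, as deposited and after the trend with G+C content and length was removed from each library. LIN28B is lower in siUPF1 than in siControl in both panels, whereas the IGF2 values of siUPF1 and siControl separate only in the deposited data.

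The serum proteins AFP and ALB did not pass the test after depletion. AFP was at 11130 and 12217 FPKM in siControl and at 11695 and 11862 FPKM in siUPF1, both depleted libraries lying between the controls. Its log2 fold change was 0.01 (95% confidence interval -0.23 to 0.26, limma adjusted p = 0.946). ALB was at 6971 and 7668 FPKM in siControl and at 6550 and 6586 FPKM in siUPF1. Both depleted libraries lay below both controls, with a log2 fold change of -0.15 (95% confidence interval -0.39 to 0.08, limma adjusted p = 0.396). The ratio of AFP to ALB within a library does not depend on scaling to library size. It was 1.60 and 1.59 in siControl and 1.79 and 1.80 in siUPF1. The groups did not overlap and were separated by far more than the libraries of a group. With 2 libraries against 2, however, the exact permutation test gives p = 0.333, the smallest it can give. In MYC, the other control group, the ratio was 1.494 and 1.495, so the 2 control groups did not overlap either. ALB and AFP have G+C contents of 40.8% and 39.0%.

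GPC3, which anchors to the cell surface and binds growth factors, was at 399 and 440 FPKM in siControl and at 433 and 420 FPKM in siUPF1, with overlapping groups. Its log2 fold change was 0.03 (95% confidence interval -0.20 to 0.26, limma adjusted p = 0.901). IGF2BP1 was at 47.3 and 49.3 FPKM in siControl and at 50.1 and 49.9 FPKM in siUPF1, a log2 fold change of 0.05 (95% confidence interval -0.16 to 0.26). Its depleted libraries lay above both controls, by less than the test could separate (limma adjusted p = 0.764). IGF2BP2 was at 25.3 and 26.8 FPKM against 26.3 and 27.7 FPKM, with overlapping groups (log2 fold change 0.05, limma adjusted p = 0.756). IGF2BP3 was at 13.8 and 14.996 FPKM against 18.3 and 15.1 FPKM, a log2 fold change of 0.20 (95% confidence interval -0.08 to 0.47, limma adjusted p = 0.350). Its 2 depleted libraries differed from each other by more than the nearer of them differed from the controls. Without single libraries its log2 fold change ran from 0.069 to 0.33, and it was called at 0.33 without siUPF1 replicate 2. IGF2BP1 made up 54.8% and 54.1% of the summed IGF2BP FPKM in siControl and 52.9% and 53.8% in siUPF1 (exact permutation p = 0.333, the smallest possible). In all, the groups of 5 of the 8 members did not overlap, beside 56% of all genes tested. The depleted libraries lay above both controls for 3 members and below both for 2, beside 37.5% and 18.5% of all genes.

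H19, the maternally expressed partner of IGF2, was at 0.124 and 0.200 FPKM in siControl and at 0.147 and 0.172 FPKM in siUPF1. It stayed under the minimum of 0.5 FPKM and was not tested. The antisense gene IGF2-AS, which overlaps IGF2, was at 0.502 and 0.482 FPKM in siControl and at 0.881 and 0.954 FPKM in siUPF1. Its control libraries average under the minimum of 0.5 FPKM, so it reached the test through siUPF1 alone, and its call is not used. The library kit keeps strand, but whether strand was used in quantification is not given in the sources used here, so reads of IGF2 and IGF2-AS may have been shared. MIR675, the microRNA entry inside H19, was listed at or below 0.0138 FPKM.

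**Figure D4:**
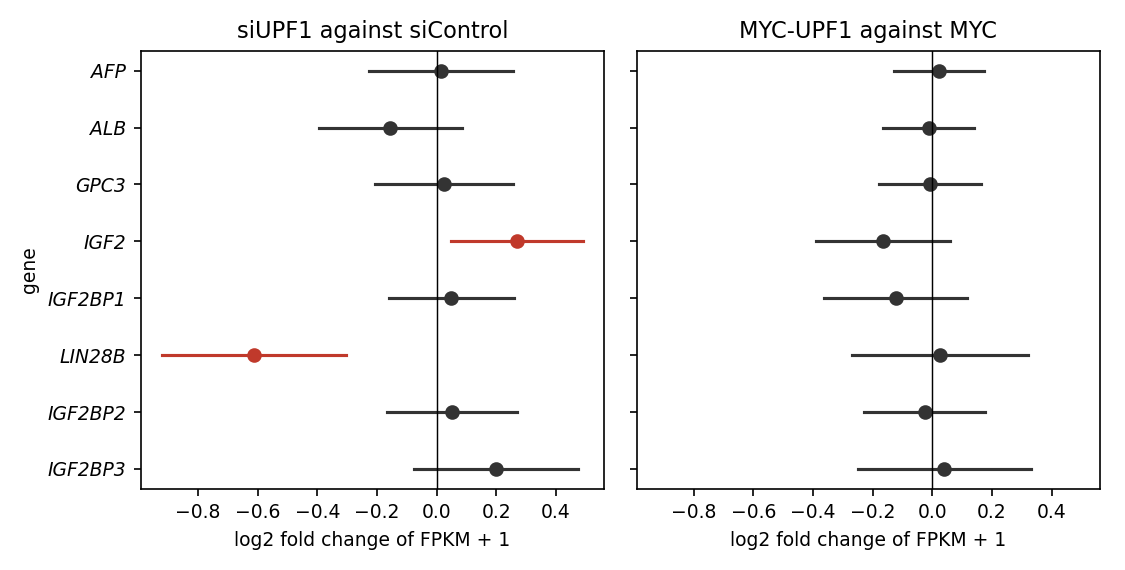
Log2 fold change of FPKM + 1 (points) with its 95% confidence interval (lines) for the 8 members tested, siUPF1 against siControl on the left and MYC-UPF1 against MYC on the right, with members called at an unadjusted p of 0.05 in red. LIN28B (-0.61) and IGF2 (0.27) are called after depletion and no member is called after overexpression.

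The albumin family lies in a cluster on chromosome 4 with AFM and GC, genes for a vitamin E-binding and a vitamin D-binding serum protein. Of its 4 genes 2 fell after depletion and none rose, beside 5.51% and 16% of all genes tested, and the same shares stand beside the counts of the further gene lists. AFM went from 2.69 and 3.34 FPKM to 0.994 and 1.14 FPKM (log2 fold change -0.96, limma adjusted p = 0.0584). GC went from 67.2 and 82.2 FPKM to 45.4 and 39.3 FPKM (log2 fold change -0.80, limma adjusted p = 0.0659). Both were called in every alternative that tested them, 13 for AFM and 14 for GC, and groups did not overlap for either. AFP and ALB, far more abundant, did not pass the test in the same libraries. In MYC, where UPF1 was not depleted, AFM was at 0.475 and 0.575 FPKM and GC at 49.8 and 45.5 FPKM, below siControl in both libraries.

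**Figure D5:**
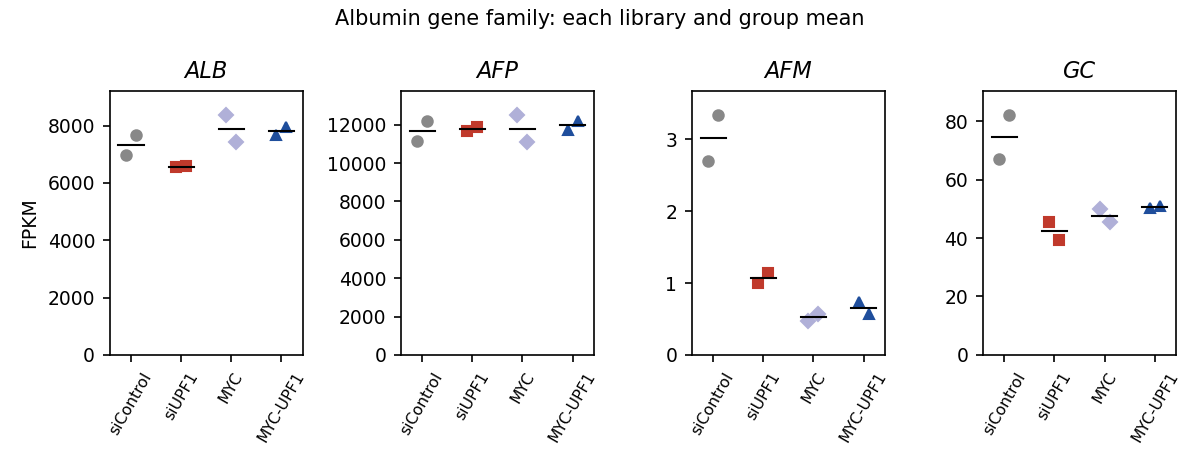
FPKM of ALB, AFP, AFM and GC (linear axes from 0), with 1 point per library and a line at each group mean. In siUPF1, AFM (0.994 and 1.14 FPKM) and GC (45.4 and 39.3 FPKM) lie below siControl, while AFP lies within its control range.

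Among transcription factors known to regulate AFP and ALB, NR5A2, a nuclear receptor that activates AFP, fell after depletion. It went from 7.43 and 7.39 FPKM to 6.63 and 4.99 FPKM (log2 fold change -0.32, limma adjusted p = 0.223). This call was lost without siControl replicate 1, without siControl replicate 2 and without siUPF1 replicate 2, and with no FPKM minimum.

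Among other genes of fetal liver and hepatoblasts, 16 were tested, of which 3 rose and 2 fell, with a median log2 fold change of 0.05. PEG10, a paternally expressed gene derived from a retrotransposon, went from 247 and 248 FPKM to 153 and 139 FPKM (log2 fold change -0.76, limma adjusted p = 0.0584). SPP1, which encodes osteopontin, also fell (log2 fold change -0.42, limma adjusted p = 0.0946), a call lost with the G+C and length trend removed (-0.27, limma adjusted p = 0.223). The growth factor gene MDK went from 139 and 144 FPKM to 187 and 213 FPKM (log2 fold change 0.50, limma adjusted p = 0.0835; 0.30 with the G+C and length trend removed), and TRIM71 rose by 0.42 on the log2 scale (limma adjusted p = 0.0888). CLDN6 also rose, by 0.22 (limma adjusted p = 0.213), and is named here after its values were seen. SPINK1, a fetal and HCC marker abundant at 432 and 419 FPKM, was at 431 and 440 FPKM after depletion.

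Of 22 genes of the mature hepatocyte that were tested, 4 fell and none rose, and the median log2 fold change was 0.02. HP, which encodes haptoglobin, went from 19.02 and 20.3 FPKM to 11.7 and 10.5 FPKM (log2 fold change -0.77, limma adjusted p = 0.0584). APOH fell by 0.53, CPS1 by 0.43 and AHSG by 0.27 on the log2 scale (limma adjusted p from 0.0988 to 0.182). The call of AHSG was lost without either siControl replicate, and APOH ran from -0.71 to -0.35 over the alternatives. After quantile normalization, and likewise after removal of the G+C and length trend, 2 genes of the list were called higher. CPS1 encodes the first enzyme of the urea cycle, and the other 3 encode serum proteins.

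LIN28B was the only one of 13 genes of let-7 biogenesis and function to fall, and TRIM71 the only one to rise. TRIM71, an RNA-binding protein of early development that let-7 represses, went from 19.2 and 20.0 FPKM to 27.5 and 25.7 FPKM. The levels of let-7 itself were not measured, since an mRNA library does not capture mature microRNAs. The entry MIRLET7D was at 2.83 and 2.46 FPKM in siControl and at 2.74 and 1.81 FPKM in siUPF1 (limma adjusted p = 0.529), and such an entry counts fragments of precursor or host transcripts. Of the 2 let-7 locus entries tested, the other, MIR99AHG, was called higher. Its log2 fold change was 0.31 with the G+C and length trend removed (limma adjusted p = 0.134). All listed let-7 entries summed to only 3.68 to 3.99 FPKM in siControl, so this call is not read further.

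Of 21 known let-7 targets tested, 6 rose and 3 fell after depletion, with a median log2 fold change of 0.08. FIGNL2 went from 2.07 and 1.90 FPKM to 4.11 and 4.37 FPKM (log2 fold change 0.81, limma adjusted p = 0.0584). ARID3B, a DNA-binding protein, went from 8.91 and 8.53 FPKM to 13.6 and 14.5 FPKM (log2 fold change 0.63, limma adjusted p = 0.0584). IGDCC3 rose by 0.56 (limma adjusted p = 0.0847) and the cell-cycle gene CCND1 by 0.41 on the log2 scale (limma adjusted p = 0.101). With the G+C and length trend removed FIGNL2 was at 0.51 and IGDCC3 at 0.34, and both were still called. Those that fell included LIN28B and the cyclin-dependent kinase CDK6, the latter by 0.28 on the log2 scale (limma adjusted p = 0.173) and named here after its values were seen. HMGA2, a chromatin protein and the best known let-7 target, was at 52.3 and 56.4 FPKM against 57.1 and 44.2 FPKM, with overlapping groups. The list thus held members in both directions, LIN28B among those that fell, beside 16% higher and 5.51% lower of all genes tested.

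Of 10 genes of the insulin-like growth factor system, 6 were called higher and none lower, beside 16% and 5.51% of all genes tested. The 6 include IGFBP7, which reached the test only through siUPF1, so the count is not read as an excess over these shares. The excess of higher over lower among all genes was absent after quantile normalization or median centring, as given above. Besides IGF2 the called genes included 4 with an IGFBP symbol, IGFBP7 among them. Of these, IGFBP2, IGFBP4 and IGFBP6 encode binding proteins that hold IGFs in the extracellular space. IGFBP6, which prefers IGF2, went from 2.18 and 2.23 FPKM to 3.27 and 3.62 FPKM (log2 fold change 0.47, limma adjusted p = 0.0835). IGFBP2 rose by 0.36 and IGFBP4 by 0.34 on the log2 scale (limma adjusted p of 0.217 and 0.177). IGFBP7, at 0.668 and 0.316 FPKM in siControl and 0.831 and 1.28 FPKM in siUPF1, reached the minimum through siUPF1 alone, so its call is not used. With the G+C and length trend removed, IGFBP6 alone of the 10 was called, at 0.25. After quantile normalization 3 were called and after median centring 2. The insulin receptor INSR also rose (log2 fold change 0.27, limma adjusted p = 0.214) and is named after its values were seen.

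GPC3 was among the genes of its pathway that were not called. Of 14 tested glypicans (GPC3 included), syndecans, enzymes of heparan sulfate synthesis and the GPC3 partner CD81, 4 rose and 2 fell. GPC2, a fetal glypican, went from 0.844 and 0.969 FPKM to 1.67 and 2.18 FPKM (log2 fold change 0.61, limma adjusted p = 0.0817; 0.39 with the G+C and length trend removed). SDC4 rose by 0.38 and the heparan sulfate polymerase EXT2 by 0.35, whereas SDC1 fell by 0.34 and GLCE, which converts glucuronic to iduronic acid, fell by 0.42 (limma adjusted p from 0.113 to 0.134). The call of SDC1 was lost without either siControl replicate, that of SDC4 without siControl replicate 1 and that of EXT2 without siControl replicate 2. SDC1 was at -0.56 with the G+C and length trend removed. Among mRNAs known to be bound by IGF2BP proteins, 12 were tested, of which 5 rose and 2 fell, IGF2 and LIN28B among them. PDLIM7, a LIM protein of the cytoskeleton, went from 19.8 and 20.5 FPKM to 28.8 and 30.3 FPKM (log2 fold change 0.53, limma adjusted p = 0.0768), and was at 0.28 with the G+C and length trend removed.

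Imprinted genes other than IGF2 and H19 also moved in both directions. Of 12 tested, IGF2 included, 3 rose and 2 fell. CDKN1C, a cyclin-dependent kinase inhibitor expressed from the maternal allele, went from 4.42 and 4.40 FPKM to 8.33 and 9.23 FPKM (log2 fold change 0.85, limma adjusted p = 0.0579). GRB10, an adaptor that restrains insulin signalling, rose by 0.50 on the log2 scale (limma adjusted p = 0.0793). PEG10 is given above, and PLAGL1, a zinc finger protein, was the other gene to fall (limma adjusted p = 0.200), a call lost without siControl replicate 2.

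Of 8 marker genes of bile duct, mesenchymal, endothelial and blood cells that reached the test, none was called after depletion. The summed FPKM of the mesenchymal list was 186 to 188 in siControl and 166 to 181 in siUPF1, nearly all of it VIM, and that of the blood list 5.22 to 5.56 and 5.20 to 5.68. KRT7, COL1A1, VWF and PTPRC, among others, were not listed in the tables.

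Overexpression of UPF1 was compared next. None of the 8 members was called in limma at an unadjusted p of 0.05, beside 1.43% of the 13251 genes tested (0.619% higher, 0.807% lower), and none at an adjusted p of 0.05, beside 0.00755%. The groups overlapped for all 8, beside 20.7% of genes without overlap (8.88% above both controls, 11.8% below). Log2 fold changes ran from -0.16 for IGF2 to 0.04 for IGF2BP3, with a median of -0.01 over the members and -0.01 over all genes. The level of UPF1 mRNA was 51.9 times that of the control in the same libraries.

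LIN28B was at 45.5 and 36.0 FPKM in MYC and at 37.1 and 45.8 FPKM in MYC-UPF1, so each group held a high and a low library. Its log2 fold change was 0.03 (95% confidence interval -0.27 to 0.32). IGF2 was at 314 and 374 FPKM in MYC and at 329 and 284 FPKM in MYC-UPF1, again with overlap, and its log2 fold change was -0.16 (95% confidence interval -0.39 to 0.06). Without single libraries it ran from -0.29 to -0.04, and IGF2 was called without MYC replicate 1 (-0.29) or without MYC-UPF1 replicate 1 (-0.27). The libraries high in LIN28B were those low in IGF2. The deviation of each library from the mean of the 4 correlated with G+C content across 12590 genes at a Spearman's rho of -0.543 and 0.696 in MYC replicates 1 and 2 and of 0.449 and -0.660 in MYC-UPF1 replicates 1 and 2. The libraries with a negative value were MYC replicate 1 and MYC-UPF1 replicate 2, which are those high in LIN28B. With the G+C and length trend removed, IGF2 was at 8.38 and 8.39 in MYC and at 8.34 and 8.26 in MYC-UPF1 as log2(FPKM + 1). Its groups no longer overlapped, but it was not called (log2 fold change -0.08). LIN28B was at 5.47 and 5.30 in MYC and at 5.35 and 5.43 in MYC-UPF1. How much of the spread between libraries this trend makes up was not tested.

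AFP was at 12505 and 11093 FPKM in MYC and at 11733 and 12195 FPKM in MYC-UPF1, with a log2 fold change of 0.02 (95% confidence interval -0.13 to 0.17). ALB was at 8371 and 7419 FPKM against 7660 and 7969 FPKM, with a log2 fold change of -0.01 (95% confidence interval -0.16 to 0.14). Both overexpressing libraries lay between the controls for both genes. The AFP to ALB ratio was 1.494 and 1.495 in MYC and 1.532 and 1.530 in MYC-UPF1 (exact permutation p = 0.333, the smallest possible), so the groups did not overlap. The difference was 0.03 on the log2 scale, against 0.17 after depletion.

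GPC3 was at 486 and 540 FPKM in MYC and at 529 and 490 FPKM in MYC-UPF1 (log2 fold change -0.01, 95% confidence interval -0.18 to 0.16). IGF2BP1 was at 57.8 and 66.9 FPKM against 62.0 and 52.5 FPKM (log2 fold change -0.12, 95% confidence interval -0.36 to 0.12). The spread within each IGF2BP1 group was larger than the difference between the means. IGF2BP2 was at 24.99 and 25.7 FPKM against 25.1 and 24.6 FPKM, and IGF2BP3 at 16.6 and 13.6 FPKM against 14.1 and 16.9 FPKM. H19, which was not tested, was at 0.170 and 0.234 FPKM in MYC and at 0.127 and 0.107 FPKM in MYC-UPF1, with both overexpressing libraries below both controls at a level where the reads behind a value are unknown. Of all lists described for depletion, 1 gene was called after overexpression, beside 1.43% of all genes tested. It was the apolipoprotein APOA2, at 1873 and 1762 FPKM in MYC and 1998 and 2070 FPKM in MYC-UPF1 (log2 fold change 0.16, limma adjusted p = 1), a call kept in 7 of 14 alternatives.

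The depletion and overexpression experiments share no libraries, and the difference between their fold changes was tested in a fit over all 8. Of the 8 members, 2 passed an unadjusted p of 0.05, beside 15.2% of 13412 genes (11.8% higher, 3.4% lower in depletion), and none passed an adjusted p of 0.05, beside 0.0224%. The log2 fold change of LIN28B was lower by 0.64 in depletion than in overexpression (-0.64, SE 0.211, limma adjusted p = 0.225). That of IGF2 was higher by 0.43 (SE 0.148, limma adjusted p = 0.231). For the other 6 members the difference lay between -0.14 and 0.17.

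The 2 control groups come from separately deposited tables, so their levels are set side by side with no test. GPC3 was higher in both MYC libraries than in both siControl libraries (1.22 times by the means), as were IGF2 (1.25 times) and IGF2BP1 (1.29 times), and LIN28B was lower (0.853 times). AFP, ALB, IGF2BP2, IGF2BP3 and H19 overlapped. The AFP to ALB ratio did not, at 1.60 and 1.59 in siControl and 1.494 and 1.495 in MYC. Of all genes, 66.8% did not overlap between these control groups, 25.7% being higher and 41.2% lower in MYC. The gap between the control groups was larger than the difference after depletion for 3 of these members, GPC3 (1.02 times after depletion by the means), IGF2 (1.21 times) and IGF2BP1 (1.04 times), and smaller for LIN28B (0.652 times).

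Across the 8 libraries, the members did not vary as a single block. Pearson's r of log2(FPKM + 1) was 0.94 between GPC3 and IGF2BP1 and -0.75 between IGF2 and LIN28B, the highest and lowest of all pairs, as a description over 8 libraries that share their groups and base composition trends. The genes whose pattern was most like that of LIN28B were GAS2L3 (r = 0.996), SLC38A4 (r = 0.993) and FRS2 (r = 0.981), with G+C contents of 37.1%, 38.2% and 36.9%, close to its own 38.0%. Those most like IGF2 were DNM2, RPTOR and REEP4 (r from 0.982 to 0.986), with G+C contents of 60.05% to 61.9%. AFP was most like XRCC5 (r = 0.929, G+C content 44.2%) and ALB most like IARS1 (r = 0.987, 43.3%) and UGT2B4 (r = 0.964, 39.9%). GPC3 (46.9%) was most like MEN1 (58.8%) and IGF2BP1 (49.1%) most like WASF2 (53.4%). IGF2BP2 (48.9%) was most like UBXN11 (60.5%) and IGF2BP3 (40.5%) most like RAB3C (37.6%). The closeness in G+C content seen for LIN28B and IGF2 was thus not shared by all members.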

How the data were processed

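Stranded, paired-end mRNA libraries were made from 8 Huh7 samples. Per the paper's methods and the submitters' processing notes, the authors trimmed reads with Trimmomatic 0.38, checked them with FastQC 0.11.7, aligned them to hg19 with HISAT2 2.1.0 and assembled transcripts with StringTie 1.3.4d (mm10 is also listed among the builds). The authors deposited FPKM values per gene and library, not counts. Single-library files and whole-series tables differed in 0 values. At most 1.34% of 448 low genes shared a ratio between libraries, so whole reads could not be recovered, depth is unknown and no count model was run.

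The siUPF1 libraries were tested against siControl and the MYC-UPF1 libraries against MYC by limma 3.58.1 (R 4.3.3; lmFit, eBayes with trend). Values entered as log2(FPKM + 1), and a gene needed a mean of 0.5 FPKM or more over the libraries fitted. Fold changes on this scale understate those of low genes. P-values were adjusted by Benjamini-Hochberg over all genes tested. Ratios within a library were compared by two-sided exact permutation tests. The method was tested on simulated data. Gene lists come from general knowledge. Members and lists were chosen with earlier results of these data known. Named genes are the members and, from each list, up to 4 called genes per comparison with the largest fold change and no overlap between groups, and the 3 most abundant; others are said to be named after their values were seen. Some genes of the lists are not reported here. Likeness is Pearson's r over 8 libraries. Transcripts, 3′UTRs and G+C content (15741 genes) come from GENCODE release 44 on GRCh37, and microRNA sequences from RefSeq (GRCh38.p14).

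Alternatives were a pseudocount of 0.1, no FPKM minimum or one of 5, quantile normalization, median centring, eBayes without trend, all 8 libraries in 1 fit, the replicate number as a block, removal of each library's trend with G+C content and length (loess, span 0.5), an adjusted p of 0.05, and each library left out. A block with crossed numbers was added after seeing the data. Python 3.11.15, pandas 2.3.3, scipy 1.17.1 and matplotlib 3.10.9 were used.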

Additional observations from a re-analysis of the deposited data

Results flagged for a closer look

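For 2 of the 8 members tested, the fold change after UPF1 depletion differed from that after overexpression at an unadjusted p of 0.05. LIN28B had a log2 fold change of -0.61 after depletion and 0.03 after overexpression, a difference of -0.64 (limma adjusted p = 0.225). With the G+C and length trend removed the difference was -0.54 and still passed that threshold, and over the alternatives the adjusted p ran from 0.0555 to 0.639. IGF2 had log2 fold changes of 0.27 and -0.16, a difference of 0.43 (limma adjusted p = 0.231). With the trend removed the difference was 0.11 and no longer passed, and over the alternatives the adjusted p ran from 0.108 to 0.658.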

How the results depend on the processing

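LIN28B was called lower after depletion in all 14 alternatives and UPF1 kept its direction and call. With an adjusted p of 0.05, 0 of the 8 members were called after depletion; without single libraries 1 to 4 were. The lowest count of 1 arose without siControl replicate 1 or 2 and the count of 4, which added ALB and IGF2BP3, without siUPF1 replicate 2. After overexpression 0 to 1 were called without single libraries (1, IGF2, without MYC replicate 1 or MYC-UPF1 replicate 1) and 1, H19, with no FPKM minimum. Of the differences between the comparisons, 0 to 2 were called without single libraries (0 without MYC replicate 2 or MYC-UPF1 replicate 2, where LIN28B was at -0.48 and -0.49; 1 without siControl replicate 1) and 1, LIN28B, with the G+C and length trend removed. Where a group kept 1 library, that library was assumed to vary like the others. The cause of these shifts was not tested.

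Small log2 fold changes of members that were not called turned sign. After depletion median centring gave AFP -0.048, GPC3 -0.037, IGF2BP1 -0.013 and IGF2BP2 -0.0098, removal of the trend gave IGF2BP1 -0.056 and IGF2BP2 -0.018, and quantile normalization gave ALB 0.28. After overexpression removal of the trend gave AFP -0.011, and quantile normalization gave ALB 0.12, GPC3 0.022 and IGF2BP2 0.0095. Without single libraries AFP ran from -0.053 to 0.082 and GPC3 from -0.044 to 0.095 after depletion. After overexpression AFP ran from -0.064 to 0.11, ALB from -0.10 to 0.075, GPC3 from -0.084 to 0.069, IGF2BP3 from -0.094 to 0.17 and LIN28B from -0.14 to 0.19. The IGF2BP1 share changed by -4.76 to 0.65 percentage points after overexpression without single libraries. Among all genes, calls after depletion numbered 2908, against 1862 at 5 FPKM or more (fewer genes tested), 1443 and 1716 without siControl replicates 1 and 2, and 5901 without siUPF1 replicate 1; at an adjusted p of 0.05 they numbered 5, against 0 to 4546. After overexpression 189 genes were called, against 409 with no FPKM minimum, 49 at 5 FPKM or more, 375 with the trend removed, and 216 to 777 without single libraries. Differences were called for 2041 genes, against 1282 at 5 FPKM or more and 1065 to 3376 without single libraries.

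The replicate number was not taken as a pairing, because the paper's methods name no replicate block. Across genes, the deviations of same-numbered libraries from their group means correlated weakly in depletion (-0.1295) and were opposed in overexpression (-0.5689). With the replicate block 2586 genes were called after depletion, 170 after overexpression and 1400 for the difference, and the members called stayed 2, 0 and 2. With the crossed replicate block 3102 and 1227 genes were called, and 2 members, IGF2 (-0.16) and IGF2BP1 (-0.12), after overexpression. As the depth behind the FPKM values is unknown, levels such as those of H19 carry no counting interval.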
